A study of Canis lupus familiaris with 10 samples.

Results

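miR-424, miR-503, miR-450a, miR-450b and miR-542 are microRNAs (miRNAs) made from neighbouring genes on the X chromosome, and they are described here in canine diffuse large B-cell lymphoma (DLBCL) and in normal lymph node. They were chosen by name, as cfa-miR-424, cfa-miR-503, cfa-miR-450a, cfa-miR-450b and cfa-miR-542 (cfa for the dog), and all 5 were found among the 320 miRNAs listed in the deposited counts. Small RNA was sequenced from 10 fresh-frozen lymph nodes with one library per dog, 6 from dogs with DLBCL (DLBCL1 to DLBCL6) and 4 from dogs labelled Healthy (Healthy2 to Healthy5). The nodes with DLBCL were biopsies taken under anesthesia from patients of both sexes and of several breeds, in which B-cell markers and no T-cell marker were stained. The healthy nodes came from purpose-bred young female hound crosses after euthanasia. Breed, origin and sampling therefore cannot be told apart from the diagnosis. Nor can age, since the paper gives no ages for the dogs with DLBCL. The sexes were mixed in the DLBCL group alone, and the part of sex in the levels of these X-linked genes was not tested. No treatment or allele is named in the labels of either group.

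Such a cluster is transcribed as one or a few long precursors, from which each hairpin is cut and loaded separately, so that neighbours can share a promoter and still reach different mature levels. miR-424 carries the seed of the miR-15/16 family, the short 5′ stretch that pairs with messenger RNAs, and miR-503 one that is nearly the same, and this family is known to repress cyclins and other drivers of the cell cycle. miR-542 is known for repressing survivin, an inhibitor of apoptosis, while miR-450a and miR-450b resemble each other in sequence and are less studied. The human cluster is known from muscle differentiation, endothelium and the response to TGF-beta more than from lymphocytes. On the X chromosome of assembly UU_Cfam_GSD_1.0, RefSeq's 5 genes follow each other in the order MIR450B, MIR450A, MIR542, MIR503 and MIR424, with 0 genes of another kind among them. They are flanked by HPRT1 and PLAC1, and 7 genes separate them from the miR-106a to miR-363 cluster. The names in the counts have no arm, so which strand of each hairpin was counted is not known here. Whether the counted strands carry the seeds and targets named above was therefore not checked. The counting could also split reads between miR-450a and miR-450b.

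Between 10686441 and 25784861 reads were counted on miRNAs per DLBCL library, and between 30432969 and 34709421 per healthy library. miR-148a took 17.8% to 73.6% of them. Counts were therefore scaled with edgeR's TMM factors, which ranged from 0.506 to 2.03, and levels are given as CPM, the usual read count relative to library size after this scaling. Lymphocyte miRNAs (miR-150, miR-142, miR-155, miR-342, miR-181a and miR-181b) were read in every library, at 9463 to 23577 CPM in sum in DLBCL and 14591 to 30633 CPM in healthy nodes. Of these 6, 4 had a negative log2 fold change, and 1 of them, miR-150, was called lower in DLBCL. All 3 red blood cell miRNAs measured higher in mean and 2 of them were called, with sums of 5171 to 35567 CPM in DLBCL and 808 to 1071 CPM in healthy nodes. For the 8 stromal and vessel miRNAs tested, the sums were 54390 to 252290 CPM and 84427 to 146470 CPM, and 0 were called. Of these 8, 7 had a negative log2 fold change, against 110 of all 247 miRNAs tested. Their median was -0.52, and the lowest was miR-125b with -1.42 (adjusted p = 0.118, edgeR). miR-223, of myeloid cells, ranged from 3.95 to 88.3 CPM in DLBCL and from 16.9 to 38.6 CPM in healthy nodes and was not called. In bulk tissue, fewer cells of a type and less RNA per cell cannot be told apart, and the part of cell make-up in the values below was not tested.

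The cluster was of low to moderate abundance. Its 5 members held 60.0 to 362 CPM in sum in the DLBCL libraries and 85.0 to 197 CPM in the healthy ones. Among the 247 miRNAs that passed edgeR's filter on low counts, which all 5 members did, miR-450b ranked 103rd by mean CPM, miR-450a 118th, miR-542 135th, miR-503 191st and miR-424 240th. Each of miR-450a, miR-542 and miR-503 exceeded the next in this order in all 10 libraries. miR-450b was above miR-450a in 6 of 6 DLBCL libraries but in 1 of 4 healthy ones, so that their order was not settled in healthy nodes. The mature forms are of about the same length, but ligation and amplification differ between sequences, and differences in level between miRNAs are differences in reads.

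**Figure D1:**
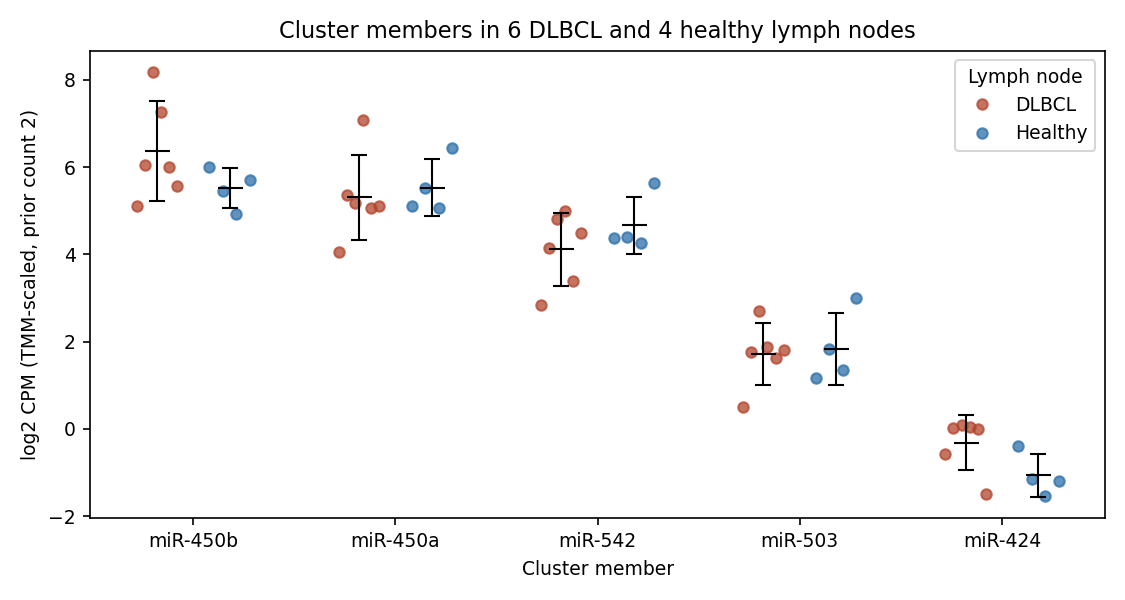
Level of the 5 cluster members (x axis) as log2 CPM (y axis) in each DLBCL (red, left) and healthy (blue, right) library, with group mean and SD as black bars. The groups overlap for every member, and the widest spread is that of miR-450b in DLBCL, between 34.3 and 290.2 CPM.

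The comparison asks whether the cluster differs between lymphoma and normal node. With edgeR's quasi-likelihood test, 0 of the 5 members were called, which took an adjusted p under 0.05 together with a change of over 2-fold. Of all 247 miRNAs tested 5.67% were called, 3.64% as higher and 2.02% as lower in DLBCL. At an unadjusted p-value under 0.05 the count was also 0 of 5, against 26.7% of all miRNAs tested. Without DLBCL1 this unadjusted count was 1 of 5, for miR-450b, where it was 61 of all 247 miRNAs. DESeq2 called 0 of the 5 as well, against 44 of the 306 miRNAs with a p-value. With limma-voom it was 0 of the 5, against 46 of 247. In CPM the groups overlapped for each member, while they did not overlap for 13.0% of all miRNAs tested. The median log2 fold change of the members was -0.02, beside 0.13 over all miRNAs tested, with 2 positive and 3 negative. The intervals given below are wide, and each includes a change of 2-fold or more in at least one direction.

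miR-450b, the most abundant member, had the largest log2 fold change of the 5 in edgeR with all libraries, though not without DLBCL3 or with limma-voom. It ranged in DLBCL from 34.3 CPM in DLBCL1 over a median of 65.2 to 290.2 CPM in DLBCL3. Healthy2 held 64.0 CPM, Healthy3 43.8, Healthy4 30.1 and Healthy5 52.4. Thus 4 DLBCL libraries lay above all healthy ones, of which DLBCL2 and DLBCL5 did so narrowly, with 66.3 and 64.2 CPM, and DLBCL1 and DLBCL6 lay within the healthy range. The mean ± SD was 109 ± 98.1 CPM over the 6 DLBCL libraries, against 47.6 ± 14.3 CPM over the 4 healthy ones. The log2 fold change of 1.20 (standard error 0.63, 95% interval -0.16 to 2.56) did not pass the test (adjusted p = 0.232 from edgeR), and the two-sided exact permutation test, with 210 possible assignments, gave p = 0.21. Without DLBCL3 it was 0.64, below the 0.84 of miR-424, and with limma-voom 0.53, where miR-424 stood at 0.86 and miR-542 at -0.68. DLBCL4, DLBCL6 and the healthy libraries had the lower shares of high-quality base calls (the lower Q30 group), and among these libraries the value was 1.07.

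miR-450a, encoded next to miR-450b, had similar mean levels in both groups, though its ratio to miR-450b, given below, did not pass adjustment. Its DLBCL levels ran from 16.7 CPM in DLBCL1 over a median of 35.2 to 135 CPM in DLBCL4. The healthy libraries held 34.3 CPM in Healthy2, 45.6 in Healthy3, 33.1 in Healthy4 and 87.2 in Healthy5. One library in each group stood high, and 4 of the 6 DLBCL libraries lay within the healthy range. Mean ± SD came to 49.4 ± 42.9 CPM (n = 6) against 50.1 ± 25.4 CPM (n = 4), and the log2 fold change to -0.02 (standard error 0.59, 95% interval -1.29 to 1.25, adjusted p = 0.986 from edgeR, exact permutation p = 0.733). The sign depended on single libraries, with -0.57 without DLBCL4 and 0.32 without Healthy5, and within the lower Q30 group the value was 0.75.

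miR-542, for which survivin is a known target, measured 7.11 CPM in DLBCL1, a median of 20.05 and 31.8 CPM in DLBCL4. Of the healthy libraries, 3 were close together, with 20.6 CPM in Healthy2, 21.1 in Healthy3 and 19.0 in Healthy4, while Healthy5 held 49.5 CPM. DLBCL1, DLBCL2 and DLBCL5 lay below all of them and 0 DLBCL libraries lay above. Mean ± SD came to 19.5 ± 9.71 CPM (n = 6) against 27.6 ± 14.7 CPM (n = 4). The log2 fold change was -0.50 (standard error 0.52, 95% interval -1.63 to 0.64, adjusted p = 0.565 from edgeR, exact permutation p = 0.3), -0.12 without Healthy5 and -0.03 within the lower Q30 group.

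miR-503, a miR-15/16 seed relative, was read 16 to 271 times per library. In DLBCL it went from 1.34 CPM in DLBCL1 over a median of 3.37 to 6.45 CPM in DLBCL3. Healthy2 held 2.16 CPM, Healthy3 3.45, Healthy4 2.47 and Healthy5 7.94. Only DLBCL1 fell outside the healthy range, below it, and the exact 95% Poisson interval of its 16 reads, 0.765 to 2.17 CPM, reached the lowest healthy level. Mean levels (± SD) of 3.51 ± 1.65 CPM (n = 6) against 4.01 ± 2.68 CPM (n = 4) gave a log2 fold change of -0.19 (standard error 0.56, 95% interval -1.41 to 1.03, adjusted p = 0.853 from edgeR, exact permutation p = 0.833). It was 0.36 without Healthy5 and -0.21 within the lower Q30 group.

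miR-424, encoded next to miR-503 and of the same seed family, was the rarest member, with 5 to 27 reads per library. The DLBCL libraries held 0.273 CPM in DLBCL6, a median of 0.925 and 0.988 CPM in DLBCL3. The healthy ones held 0.683 CPM in Healthy2, 0.367 in Healthy3, 0.263 in Healthy4 and 0.352 in Healthy5. DLBCL2, DLBCL3, DLBCL4 and DLBCL5 lay above all healthy libraries, while DLBCL1 and DLBCL6 did not. At this depth counting error is large. The 5 reads of Healthy4 have an exact 95% Poisson interval of 1.62 to 11.7 reads, and the 27 of DLBCL4 one of 17.8 to 39.3 reads, which cover counting error only. The coefficient of variation between dogs was 37.0% in DLBCL and 44.1% in healthy nodes, where counting alone gives 24.02% and 32.03% at the mean read number. With 0.775 ± 0.287 CPM (mean ± SD, n = 6) against 0.416 ± 0.184 CPM (n = 4), the log2 fold change was 0.90 (standard error 0.59, 95% interval -0.38 to 2.17, adjusted p = 0.317 from edgeR, exact permutation p = 0.081). Within the lower Q30 group it was 0.54.

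For the other 4 members counting error was a minor part of the spread. At the mean read number it came to 1.97% in DLBCL and 2.92% in healthy nodes for miR-450b, against coefficients of variation of 89.7% and 30.04% between dogs, and to 10.7% and 9.43% for miR-503, against 47.0% and 67.0%.

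Scaling matters for all 5. When total miRNA reads set the scale instead, as they do in TPM, the median log2 fold change over the 247 miRNAs went from 0.13 to 0.82, and the members moved with it. They then stood at 1.81 for miR-450b, 1.60 for miR-424, 0.73 for miR-450a, 0.30 for miR-503 and 0.19 for miR-542, so that miR-450b and miR-424 lay above that median and the other 3 below it. Of the 5, 0 were called, against 23 of all 247 miRNAs on this scale. An unadjusted edgeR p-value under 0.05 was found for 2 of the 5, miR-450b and miR-424, and for 84 of all 247.

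Ratios between members within a library do not depend on the scaling, and they were compared to see whether the make-up of the cluster differed. miR-450b took 43.9% to 80.2% of the cluster reads in DLBCL and 26.5% to 52.6% in healthy nodes, on average 56.2% ± 12.9 (SD, n = 6) and 38.2% ± 10.8 (SD, n = 4). miR-450a took 28.8% ± 10.4 (SD, n = 6) and 37.8% ± 6.82 (SD, n = 4), and miR-542 took 12.2% ± 4.75 (SD, n = 6) and 20.7% ± 3.71 (SD, n = 4). miR-503 and miR-424 together made up a small rest, with 2.26% ± 0.735 (SD, n = 6) and 2.93% ± 0.92 (SD, n = 4) for miR-503 and 0.556% ± 0.321 (SD, n = 6) and 0.342% ± 0.159 (SD, n = 4) for miR-424.

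**Figure D2:**
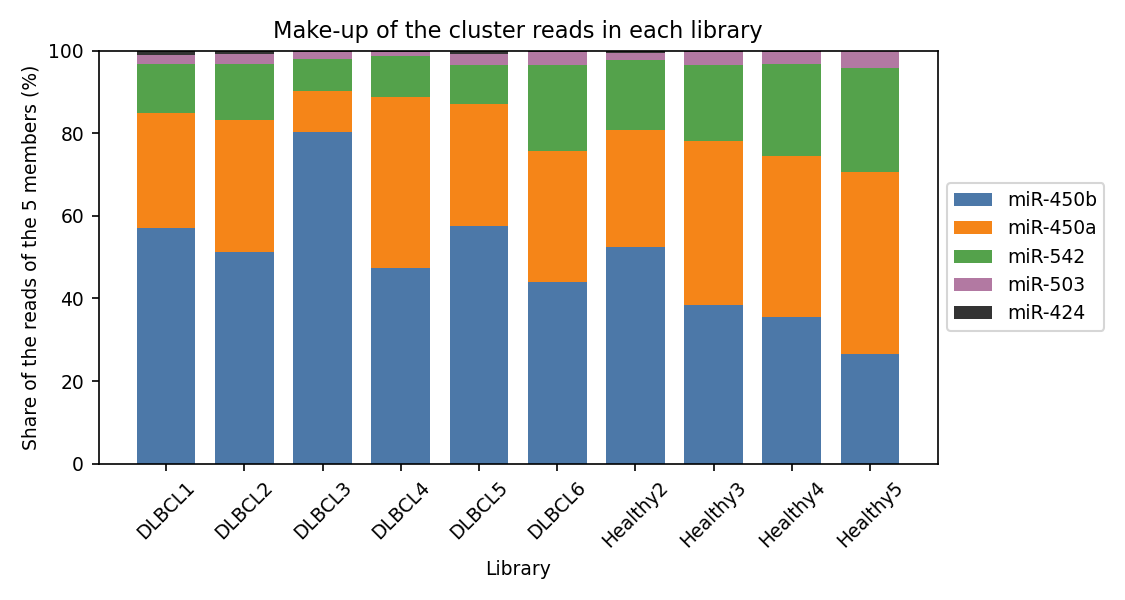
Share of each member in the reads of the 5 cluster members (y axis, percent) in each library (x axis). miR-450b is the largest part in all 6 DLBCL libraries, up to 80.2% in DLBCL3, whereas miR-450a is larger than it in Healthy3, Healthy4 and Healthy5.

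Reads of miR-450b per read of miR-542 numbered 4.82 in DLBCL1, 3.78 in DLBCL2, 10.4 in DLBCL3, 4.84 in DLBCL4, 6.20 in DLBCL5 and 2.10 in DLBCL6. The healthy libraries gave 3.102 in Healthy2, 2.08 in Healthy3, 1.59 in Healthy4 and 1.06 in Healthy5. Only DLBCL6 fell within the healthy range. The mean log2 ratio was 2.25 ± 0.76 (mean ± SD, n = 6) in DLBCL against 0.86 ± 0.65 (n = 4) in healthy nodes, a 2.63-fold difference (exact permutation test, two-sided, p = 0.0238, adjusted p = 0.214 over the 10 ratios). With Healthy5 left out the p-value was 0.0714, and within the lower Q30 group the log2 difference was 0.81 in place of 1.40.

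The corresponding fold of DLBCL over healthy nodes was 2.09 for miR-450b relative to miR-450a (exact permutation p = 0.081), 1.95 relative to miR-503 (exact permutation p = 0.0857) and 1.004 relative to miR-424 (exact permutation p = 0.99). For miR-424 only the means were alike, since 3 DLBCL libraries lay above all healthy ones and 3 below all of them. Its log2 ratios ran from 5.77 to 8.16 in DLBCL and from 6.49 to 7.16 in healthy nodes, at 5 to 27 miR-424 reads per library. Against miR-450a the reads per read were 0.601 to 1.87 in healthy nodes and 1.14 to 2.06 in 5 DLBCL libraries, while DLBCL3 held 8.02. Relative to miR-424, miR-542 had a log2 difference of -1.39 (exact permutation p = 0.0762) and miR-450a one of -1.06 (exact permutation p = 0.11). Within the lower Q30 group these were -0.27 and 0.21, so that the second changed sign, and the log2 difference of miR-450b relative to miR-450a was 0.33 in place of 1.06. After adjustment 0 of the 10 ratios passed. At an unadjusted p-value under 0.05 it was 1 of 10, or 10%, against 25.8% of the 30381 ratios between any pair of miRNAs tested, and the groups overlapped in all 10, against 12.8% of all such ratios in which they did not. Both shares lay below those of miRNA ratios at large.

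**Figure D3:**
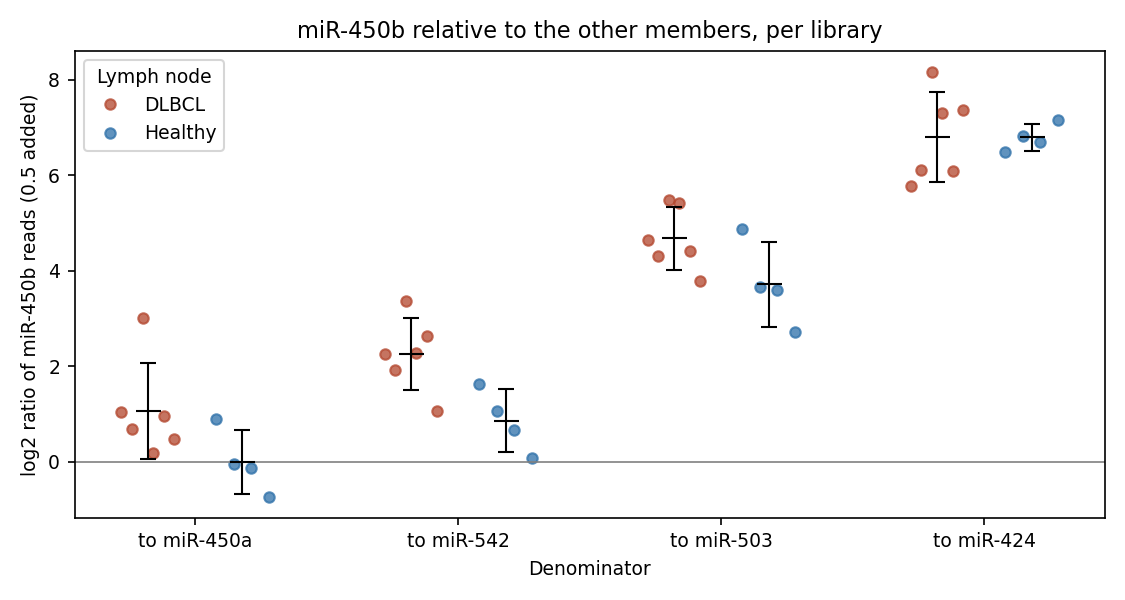
Log2 ratio of miR-450b reads to those of each other member (x axis) per library, with 0.5 added to each count, in DLBCL (red) and healthy nodes (blue), and mean and SD in black. DLBCL values lie mostly above the healthy ones for miR-542, with means of 2.25 and 0.86. For miR-424 the means are alike, but 3 DLBCL values lie above all healthy ones and 3 below all of them.

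Single healthy libraries weighed on these ratios. Healthy2 had the highest healthy ratio of miR-450b to miR-450a, miR-542 and miR-503. Without it, all 6 DLBCL libraries exceeded the remaining healthy ones in these 3 ratios (exact permutation p = 0.0476, 0.0119 and 0.0238), with adjusted p-values of 0.143, 0.119 and 0.119. Taking away the highest healthy library makes such a separation easier to reach. The shares of all miRNA ratios given above refer to all 10 libraries, not to this setting. Without Healthy5, in contrast, 0 of the 10 ratios had an unadjusted p-value under 0.05.

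Whether the members rose and fell together from dog to dog was examined within the 6 DLBCL libraries. All 5 members lay below their DLBCL mean in DLBCL1, where 10686441 miRNA reads are the lowest number, and all 5 lay above it in DLBCL4. In DLBCL3 4 members lay above it, with miR-450b 1.82 above on the log2 scale and miR-450a 0.13 below. DLBCL6 was 1.18 below the mean in miR-424 and 0.39 above it in miR-542. DLBCL3 also held the highest summed level of the skeletal muscle miRNAs, 360 CPM, where the other libraries held 9.42 to 85.0 CPM. Most of it was miR-1, with 301 CPM, while miR-133c was lower in DLBCL3 than in DLBCL1 (7.53 and 9.71 CPM). Its sum of the epithelial miRNAs, 112 CPM, was the highest too, where the others held 10.5 to 26.5 CPM. Only 2 of the 6 listed epithelial miRNAs were tested. Of these, miR-200c held 108 CPM in DLBCL3, while miR-141 was lower there than in Healthy5 (4.05 and 7.30 CPM). The part of these miRNAs in the miR-450b level of DLBCL3 was not tested.

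**Figure D4:**
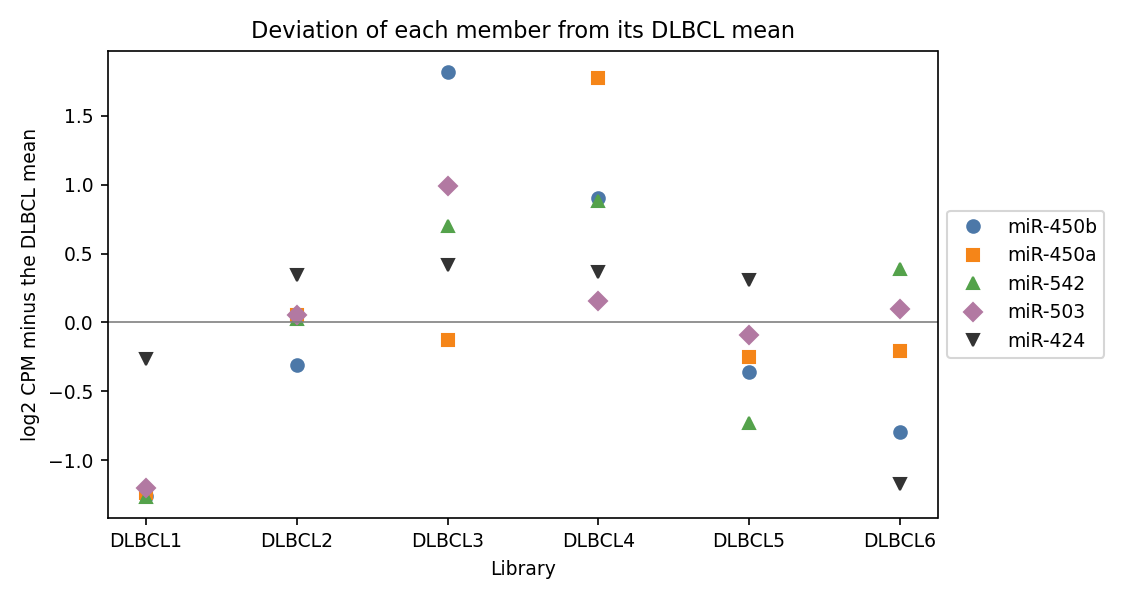
Difference of each member's log2 CPM from its own mean over the 6 DLBCL libraries (y axis) in each of them (x axis). All 5 symbols lie below 0 in DLBCL1 and above 0 in DLBCL4, while miR-450b and miR-450a part in DLBCL3, at 1.82 and -0.13.

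Each of the 10 pairs of members was positively correlated in log2 CPM across the 6 DLBCL libraries, with a median Pearson's r of 0.58, while over all 30381 pairs of miRNAs tested the median r was 0.02 and 51.3% were positive. Members of a pair share the library and its scaling factor. By Pearson's r the closest pairs were miR-450b with miR-503 (r = 0.84, exact permutation p = 0.0319; rho = 0.83, p = 0.0583) and miR-542 with miR-503 (r = 0.83, p = 0.0139; rho = 0.94, p = 0.0167). Without the 2 libraries farthest from the median of the first member, r was 0.82 and 0.44. The pairs of miR-424 had r values from 0.10, with miR-542, to 0.59, with miR-450b (exact permutation p = 0.233). For the latter rho was 0.94 (exact permutation p = 0.0167), as high as that of miR-542 with miR-503, and both had an adjusted p of 0.0833. With both scalings, 0 of the 10 exact p-values of r passed after adjustment over the 10 pairs (smallest adjusted exact p = 0.139 with TMM and 0.0556 with total reads). With TMM 2 were under 0.05 before it. The share of all miRNA pairs under 0.05 was not computed, so that this count has no reference.

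Over all 10 libraries, the tested miRNA most like miR-542 in log2 CPM was its neighbour miR-503 (Pearson's r = 0.82, Spearman's rho = 0.87), ranking 1 of 246. In turn miR-542 was the one most like miR-503 and the one most like miR-450a (r = 0.80, rho = 0.76). By Pearson's r no member was so close to miR-450b, where miR-424 ranked 6 of 246 (r = 0.71), miR-503 24, miR-450a 45 and miR-542 47. By Spearman's rho, miR-450b and miR-424 were the closest members of all (rho = 0.89). For miR-424 the nearest member by r was miR-450b at rank 4, while miR-542 ranked 139 (r = -0.18). These ranks are descriptions over 10 libraries that include both groups.

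Outside the cluster, the miRNAs most like miR-542 were miR-374b (r = 0.81, rho = 0.88), itself X-linked, and miR-210 (r = 0.77, rho = 0.78), which is known to be induced by hypoxia, followed by miR-196a (r = 0.71, rho = 0.58). miR-210 and miR-374b were also among the 3 nearest to miR-450a (r = 0.78 and 0.76) and to miR-503 (r = 0.62 and 0.64). The lists were completed by miR-34c for miR-450a (r = 0.78, rho = 0.60) and miR-449a for miR-503 (r = 0.68, rho = 0.62). miR-34c held 207 CPM in DLBCL4, where miR-450a was highest too, and at most 37.2 CPM in any other library. miR-450b was most like miR-148b (r = 0.87, rho = 0.77), ahead of miR-449a (r = 0.84, rho = 0.76) and miR-8803 (r = 0.80, rho = 0.60). All 3 were highest in DLBCL3, as was miR-450b, and these r values lean on that library. There miR-449a held 11.7 CPM and miR-8803 9.51 CPM, against at most 1.17 and 1.11 CPM in any other library. miR-424 was most like miR-486, miR-486-3p and miR-7 (r = 0.73, 0.73 and 0.72). miR-486, abundant in red blood cells, was called higher in DLBCL by 4.87 on the log2 scale (standard error 1.20; adjusted p = 0.0397, edgeR), and miR-486-3p at nearly the same counts, so that these may be one signal counted under both names. The part of red blood cells in the miR-424 level was not tested.

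The other 5 miRNAs of the miR-15/16 seed family, relatives of miR-424 and miR-503, were far more abundant. Their sum was 1230 to 2788 CPM in DLBCL and 1263 to 3158 CPM in healthy nodes, of which miR-16 made up 1186 ± 502 CPM (mean ± SD, n = 6) and, in healthy nodes, 1429.6 ± 513 CPM (n = 4). Of these 5, 0 were called, also 0 of miR-424 and miR-503, and the median log2 fold change was -0.27. The value farthest from 0 was that of miR-195, at -1.03 (standard error 0.42; adjusted p = 0.138, edgeR), from 225 ± 99.4 CPM (n = 6) against 458 ± 138 CPM (n = 4). Beside them, miR-503 measured 3.51 and 4.01 CPM and miR-424 0.775 and 0.416 CPM in mean, whichever strand was counted under these names.

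The miR-106a to miR-363 cluster, the nearest other miRNA cluster on the X chromosome and a relative of the miR-17 cluster, had a median log2 fold change of 2.08 over 4 miRNAs (miR-363, miR-106a, miR-20b and miR-18b), and 1 of these 4 was called. That was miR-363, with 2.14 (standard error 0.49, 95% interval 1.08 to 3.19, adjusted p = 0.0397 from edgeR). The members of the miR-424 to miR-450b cluster, 7 genes away, ranged from -0.50 to 1.20. There were 29 X-linked miRNAs tested outside the miR-424 to miR-450b cluster, these 4 of the miR-106a to miR-363 cluster among them. Of the 29, 22 log2 fold changes were positive and 7 negative with a median of 0.33. Over all 247 miRNAs tested, 137 were positive and 110 negative with a median of 0.13. Of the 29, miR-363 was called higher and miR-504, with -1.72, lower, against 9 called higher and 5 lower of all 247. The difference between the 2 clusters was not tested, since the neighbour was chosen with its change known.

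**Figure D5:**
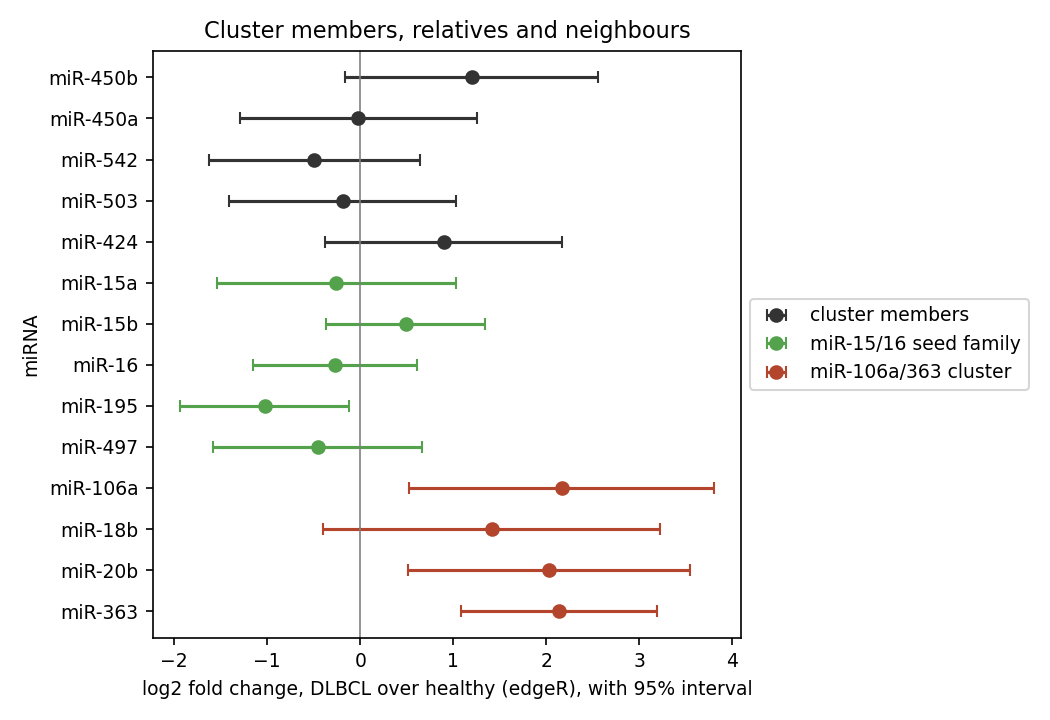
Log2 fold change of DLBCL over healthy nodes (x axis) with its 95% interval for the 5 cluster members (black), the 5 other miR-15/16 seed relatives (green) and 4 miRNAs of the miR-106a to miR-363 cluster (red). The intervals of all 5 members include 0, while that of miR-363 runs from 1.08 to 3.19.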

How the data were processed

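Per the labels and methods, the authors prepared libraries with the NEBNext small RNA set, mapped reads with Bowtie 0.12.9 (build CanFam3.1 in the submitters' processing notes), removed repeats and other RNA classes, and counted mature miRNAs of miRBase with miRDeep2. The deposited read counts of 320 miRNAs are not normalized. The deposited TPM values equal counts scaled to the total of listed miRNAs (largest difference 4.55e-05) and were not tested. Groups came from the sample titles. The Q30 groups came from the authors' read statistics, the lower one being DLBCL4, DLBCL6 and the healthy libraries.

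Counts were tested with edgeR 4.0.16 in R 4.3.3 (TMM, default filter, quasi-likelihood test, Benjamini-Hochberg over 247 miRNAs). Calls needed an adjusted p under 0.05 and a log2 fold change above 1 or below -1. Standard errors were derived from the F statistic. Log2 CPM has a prior count of 2. Ratios, with 0.5 added, and correlations used exact permutation (Python 3.11.15, numpy 2.4.6, pandas 2.3.3, scipy 1.17.1), and plots matplotlib 3.10.9. The smallest p that 6 libraries against 4 allow is 0.00476, and that of 6 pairings 0.00139. Alternatives used DESeq2 1.42.0 and limma 3.58.1. Tests were checked on simulated data. Libraries of a group were not duplicates (smallest chi-squared per degree of freedom 2115). Depth is given in the report. Of the 320 names, 318 matched a gene of UU_Cfam_GSD_1.0, whose coordinates are not used because the build differs. Sequences are not printed.

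The miRNAs and lists were chosen with earlier results of these data known. Named are the 5 members, their seed relatives, the miR-106a/363 cluster, a few X-linked miRNAs, the marker lists, and the 3 miRNAs most like each member by Pearson's r.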

Additional observations from a re-analysis of the deposited data

Results flagged for a closer look

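Among 30 sets of values, each being 1 member or 1 ratio of members in 1 group, 2 had a library set apart from its group by Dixon's criterion, which chance meets in about 1 in 20 sets. Healthy5 held 49.5 CPM of miR-542, where the other healthy libraries held 19.0 to 21.1 CPM. In DLBCL3 the log2 ratio of miR-450b to miR-450a was 3.0, while in the other DLBCL libraries it lay between 0.18 and 1.04.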

How the results depend on the processing

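None of the 5 members was called in any of the 94 member fits under the alternatives. miR-450b (0.53 to 1.81) and miR-424 (0.54 to 1.60) kept a positive log2 fold change in each of them. miR-450a, near 0, changed sign in 12 of 19, to 0.044 with DESeq2's size factors, 0.046 with DESeq2, 0.73 with total miRNA reads, 0.76 with the Q30 group as a covariate and 0.75 within the lower Q30 group. miR-503 turned to 0.30 and miR-542 to 0.19 with total miRNA reads. With the replicate number as a block, miR-450a was at 0.11 and miR-503 at 0.19, and 1 miRNA was called. By design the numbers do not pair dogs, since patients were compared with purpose-bred dogs. Deviations of same-numbered libraries from their group means correlated at 0.26, -0.01, -0.30 and -0.33, and 1 of 4 DLBCL libraries matched its own number best. Whether same-numbered libraries were processed together was not tested. Leaving out 1 library gave -0.57 to 0.32 for miR-450a, -0.44 to 0.36 for miR-503, -0.65 to -0.12 for miR-542, 0.64 to 1.47 for miR-450b and 0.72 to 1.28 for miR-424. A minimum of 10 reads in every library left miR-424 untested.

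The count of all miRNAs called, 14, became 8 with DESeq2's size factors, 23 with total miRNA reads (22 higher and 1 lower, against 9 and 5), 7 with the Q30 covariate, 46 within the lower Q30 group, 44 with DESeq2 and 46 with limma-voom, and ranged from 1 without Healthy4 to 23 without DLBCL4. The causes were not tested. No ratio or correlation between members passed adjustment in any alternative tested. Depth limits miR-424 most, and miR-503 in DLBCL1, with 16 reads.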
